A study of Mus musculus with 24 samples.

Results

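Lung epithelial and endothelial transcripts were followed in RNA of myeloid cells that had been sorted from the lungs of mice. The genes were a fixed list of 36 symbols, and each matched 1 row of the deposited table of 37979 genes. The list was drawn up with earlier results of these libraries in view, so the levels, calls and adjusted p values given here describe the genes and support no claim about the list. Of the 36 genes, 18 are markers of lung epithelium and 15 are markers of vascular endothelium. The other 3 genes, Inmt, Fmo1 and Limch1, are specific to neither cell type and were kept apart.

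The study covered 8 groups of 3 libraries from male C57BL/6 mice aged 10 to 16 weeks. MacB cells were sorted as CD11b+ and Ly6G-, with high CD64 and CD11c+ for MacB3, low CD64 and CD11c+ for MacB1, and intermediate CD64 without CD11c for MacB2. MacA cells were sorted as SiglecF+ and CD11c+. Tumours were made by injecting LLC-Luc cells, a Lewis lung carcinoma line with luciferase, into the left lobe, and the tumour groups were MacB3-3wk, MacB3-2wk, MacB2-2wk, MacB2-3wk and MacA-2wk, taken 2 or 3 weeks later from the lobe with the tumour. The naive groups were MacB1-N, MacB2-N and MacA-N, taken from all lobes of uninjected mice, so each contrast of tumour with naive also compared the left lobe with the whole lung. Each library pooled tissue of 3 to 5 mice and a group's 3 libraries came from 3 separate experiments. Lungs were perfused, digested with collagenase and elastase, freed of red cells by lysis, and sorted with gates against doublets and dead cells.

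The lung surface is made by several epithelial cell types. Airway secretory (club) cells release secretoglobins and carry the cytochrome Cyp2f2. Alveolar type 2 cells make surfactant and alveolar type 1 cells form the thin gas-exchange surface. Endothelial cells line the capillaries beside them and are held together by VE-cadherin, the product of Cdh5. The transcription factor NKX2-1 drives surfactant and secretoglobin genes in lung epithelium, and factors of the ETS family drive many endothelial genes, among them the angiopoietin receptor Tek and its relative Tie1.

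Promoter sequence was available for 23 of the 36 genes. The 250 bases before the RefSeq start of 4 genes are shown because these genes are well-studied targets of the NKX2-1 or the ETS group and their levels moved together in the data below. The sequences are from RefSeq on GRCm38.p6, written in the direction of transcription. Capitals mark CTCAAG, a core of the NKX2-1 site, in the surfactant genes Sftpb (chr6:72304360-72304609, plus strand) and Sftpa1 (chr14:41131538-41131787, plus strand). In Tie1 (chr4:118489850-118490099, minus strand) and Tek (chr4:94739039-94739288, plus strand) they mark CAGGAA, a core of the ETS site, or its reverse complement TTCCTG.
Sftpb: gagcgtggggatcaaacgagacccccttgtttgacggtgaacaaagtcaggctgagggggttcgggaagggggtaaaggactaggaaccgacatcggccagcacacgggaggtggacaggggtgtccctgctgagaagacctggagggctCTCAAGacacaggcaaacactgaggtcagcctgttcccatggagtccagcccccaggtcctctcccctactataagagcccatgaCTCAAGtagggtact
Sftpa1: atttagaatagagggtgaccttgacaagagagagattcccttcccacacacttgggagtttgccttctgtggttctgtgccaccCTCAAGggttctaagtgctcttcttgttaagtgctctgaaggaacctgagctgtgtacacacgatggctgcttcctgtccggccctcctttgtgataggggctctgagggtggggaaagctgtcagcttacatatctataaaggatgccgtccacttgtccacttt
Tie1: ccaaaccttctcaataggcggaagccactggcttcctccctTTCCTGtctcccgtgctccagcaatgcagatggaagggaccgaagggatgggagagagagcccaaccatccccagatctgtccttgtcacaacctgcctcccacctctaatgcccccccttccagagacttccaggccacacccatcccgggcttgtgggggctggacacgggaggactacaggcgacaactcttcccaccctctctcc
Tek: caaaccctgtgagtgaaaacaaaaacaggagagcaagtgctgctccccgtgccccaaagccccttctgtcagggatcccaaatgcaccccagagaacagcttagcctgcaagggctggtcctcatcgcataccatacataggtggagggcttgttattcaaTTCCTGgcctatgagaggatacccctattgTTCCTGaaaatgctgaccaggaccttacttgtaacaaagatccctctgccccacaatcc
Both strands were searched for each motif, and no occurrence of one motif can share a base with an occurrence of the other. CTCAAG occurred in 3 of the 12 epithelial genes and 1 of the 9 endothelial genes with an entry, against 13.33% of 32851 mouse promoters of this length. CAGGAA occurred in 6 of the 12 epithelial genes and 5 of the 9 endothelial genes, against 25.71% of all promoters. A match describes the letters in this window and is not evidence of a bound site.

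The deposited values were FPKM, fragments scaled for transcript length and for library size, so that levels of different genes can be set side by side. Library sums were 1880236 to 4868372 FPKM, protein-coding genes held 10.4% to 27.8% of them, and relative depth, read from the smallest steps between low values, spanned 0.521 to 1 with absolute depth unknown. The labelled sorts were seen in their own genes. The pan-leukocyte gene Ptprc was at 46.9 to 283.1 FPKM in every library, and Siglecf was at 125.3 to 303.0 FPKM in MacA against at most 8.77 FPKM in MacB. Itgam, which encodes CD11b, averaged 213.1 to 300.0 FPKM in the MacB groups and 17.3 ± 7.11 FPKM in MacA-2wk and 2.30 ± 2.08 FPKM in MacA-N (SD, n = 3). Lane 1 held the MacA libraries while lanes 2, 3 and 7 held those of MacB, which means that in contrasts of MacB with MacA the lane and the population cannot be told apart. In every MacB group replicates 1, 2 and 3 were run on lanes 2, 3 and 7, so that among MacB libraries the replicate number and the lane cannot be told apart either. The lane 7 library was the highest of its group in 7 of 15 endothelial genes for MacB3-3wk, 1 for MacB3-2wk, 13 for MacB1-N, 0 for MacB2-2wk, 12 for MacB2-3wk and 15 for MacB2-N. In all 3 airway genes it was the lowest of its group in MacB1-N and MacB2-N and the highest in MacB2-2wk. The part of the lane in the results was not tested apart from the replicate. Within their groups 3 libraries stood apart in the genes described here, MacB2-N replicate 3, MacB2-2wk replicate 2 and MacA-2wk replicate 3, and each had the highest level of its group in 15 of 15 endothelial genes. MacA-2wk replicate 3 also had the largest sum of all libraries and the smallest protein-coding share.

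Transcripts of the epithelial and endothelial genes were present in every sorted population, and their level differed widely between groups and between libraries of a group. Epithelial genes at or above 1 FPKM numbered 12 to 18 of 18 per library, and endothelial genes 8 to 15 of 15. The endothelial set averaged 2.32, 1.87 and 2.44 in MacB3-3wk on the log2(FPKM + 1) scale, 3.02, 3.39 and 2.91 in MacB3-2wk, 5.38, 5.49 and 5.82 in MacB1-N, 3.83, 3.90 and 5.57 in MacB2-N, 4.18, 5.74 and 4.48 in MacB2-2wk, 2.70, 2.83 and 3.06 in MacB2-3wk, 2.87, 2.76 and 4.74 in MacA-2wk, and 3.02, 3.87 and 3.60 in MacA-N. MacB1-N was the only group with all 3 libraries high, and MacB2-N replicate 3 and MacB2-2wk replicate 2 lay within its range, MacA-2wk replicate 3 lay below it, and the rest of their groups lay lower still. In such bulk RNA, fewer cells of a type and less RNA per cell cannot be told apart. Whether the transcripts came from the sorted cells or from other cells was not tested.

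**Figure D1:**
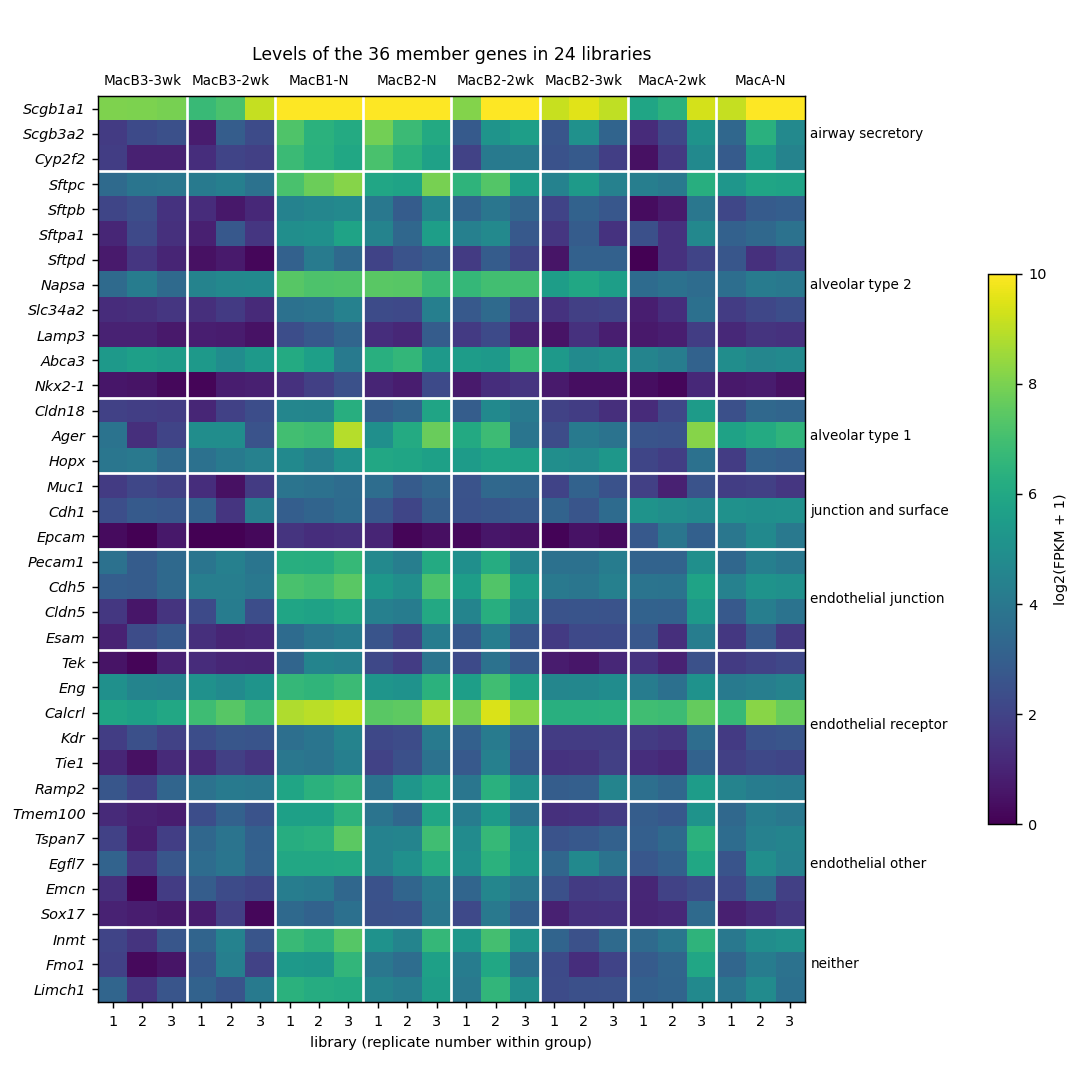
Level of each of the 36 genes (rows, grouped by role) in each of the 24 libraries (columns, grouped and numbered by replicate), as log2(FPKM + 1), with the colour scale ending at 10. MacB1-N columns are bright in all 3 libraries for most genes, while in MacB2-N, MacB2-2wk and MacA-2wk single libraries stand out, and Cdh1 and Epcam are brightest in MacA.

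The epithelial set averaged 2.49, 2.56 and 2.39 on the same scale in MacB3-3wk, 2.32, 2.57 and 2.68 in MacB3-2wk, 5.16, 5.14 and 5.32 in MacB1-N, 4.68, 4.41 and 5.11 in MacB2-N, 3.67, 4.56 and 4.08 in MacB2-2wk, 2.84, 3.53 and 3.13 in MacB2-3wk, 2.24, 2.46 and 4.30 in MacA-2wk, and 3.41, 4.17 and 3.95 in MacA-N. On this scale MacB1-N had the highest group mean and MacB3-3wk the lowest in both sets. The libraries of MacB3-2wk and MacB3-3wk overlapped in the epithelial set, however. As a share of protein-coding FPKM, the epithelial set reached 2.10% in MacB1-N replicate 1 and was as low as 0.0295% in MacA-2wk replicate 1, and of the summed 13590 FPKM in MacB1-N replicate 1 the gene Scgb1a1 made up 12684. The endothelial set made up 0.0146% to 0.293% of protein-coding FPKM.

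**Figure D2:**
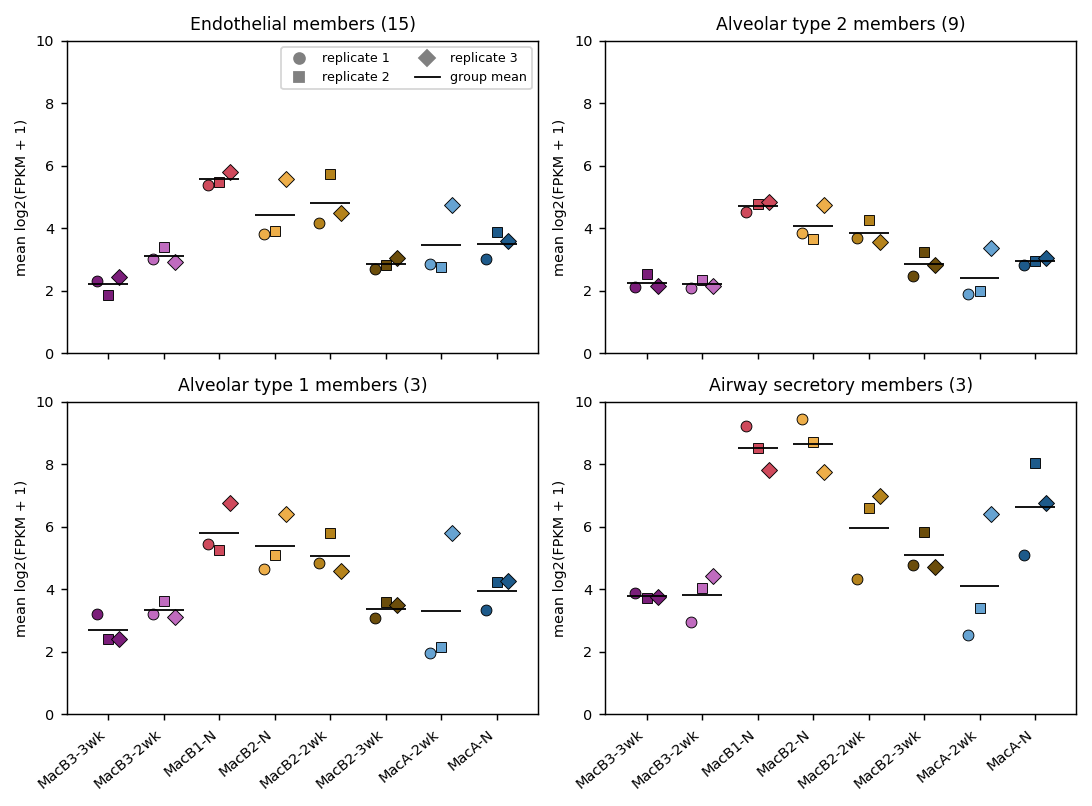
Mean log2(FPKM + 1) of the 15 endothelial, 9 alveolar type 2, 3 alveolar type 1 and 3 airway secretory genes in each library, by group, with the group mean as a line. MacB2-N replicate 3 is the highest of its group in the endothelial panel at 5.57 and the lowest of its group in the airway panel at 7.75.

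Over the 24 libraries the epithelial and endothelial levels had a Pearson r of 0.896, and the value was 0.904 over the 18 MacB libraries, 0.860 over the 6 MacA libraries, 0.941 over the 9 naive libraries and 0.872 over the 15 tumour libraries. These correlations are descriptions over libraries that share groups, depth and composition of the RNA. Endothelial level followed the alveolar type 2 genes (r = 0.906, n = 24) and the alveolar type 1 genes (r = 0.929) more closely than the airway secretory genes (r = 0.727). Among the 9 naive libraries the r of endothelial with alveolar type 2 genes was 0.952, and with airway secretory genes 0.452.

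The endothelial junction genes were highest in MacB1-N by mean. The single highest library was MacB2-2wk replicate 2 for Cldn5 (75.5 FPKM) and Esam (17.9 FPKM), and MacB1-N replicate 3 for Cdh5 and Pecam1. Cdh5, the adherens junction cadherin of endothelium, was at 7.03, 6.61 and 9.67 FPKM in MacB3-3wk, 18.3, 18.6 and 15.1 in MacB3-2wk, 139.0, 126.0 and 174.6 in MacB1-N, 38.2, 29.98 and 144.7 in MacB2-N, 46.7, 153.4 and 46.9 in MacB2-2wk, 15.5, 14.4 and 19.7 in MacB2-3wk, 13.3, 13.01 and 54.1 in MacA-2wk, and 20.2, 34.0 and 31.1 in MacA-N. All MacB1-N libraries lay above all MacA-N libraries, and the library of highest Cdh5 in MacB2-N overlapped the MacB1-N range. Cldn5, the claudin of endothelial tight junctions, averaged 58.8 ± 5.24 FPKM in MacB1-N and 1.49 ± 0.850 FPKM in MacB3-3wk (SD, n = 3 each), the groups with its highest and lowest mean. Pecam1, the adhesion molecule CD31 that leukocytes also carry, averaged 84.4 ± 15.3 FPKM in MacB1-N and 9.46 ± 2.79 FPKM in MacB3-3wk. Esam, an adhesion molecule of endothelium and platelets, was at 13.9 ± 3.40 FPKM in MacB1-N and 1.29 ± 0.244 FPKM in MacB3-2wk, its lowest group.

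The receptor genes of endothelium were also highest in MacB1-N by mean, over a wide range of levels. Calcrl, which pairs with Ramp2 to form the adrenomedullin receptor, was the most abundant endothelial gene of the list, at 55.7, 50.6 and 62.8 FPKM in MacB3-3wk, 119.3, 169.6 and 111.9 in MacB3-2wk, 450.2, 496.3 and 564.3 in MacB1-N, 174.5, 180.7 and 415.9 in MacB2-N, 231.2, 696.7 and 298.5 in MacB2-2wk, 77.6, 79.2 and 80.0 in MacB2-3wk, 120.1, 113.7 and 198.6 in MacA-2wk, and 103.5, 300.0 and 203.8 in MacA-N. The single highest value, in MacB2-2wk replicate 2, was above every MacB1-N library. Ramp2 averaged 82.0 ± 23.3 FPKM in MacB1-N and 5.68 ± 2.79 FPKM in MacB3-3wk, the same highest and lowest groups as its partner. Tek averaged 16.8 ± 7.22 FPKM and Tie1 15.7 ± 2.97 FPKM in MacB1-N, against 0.492 ± 0.407 and 0.908 ± 0.491 FPKM in MacB3-3wk. Kdr, the main VEGF receptor of endothelium, and Eng, a TGF-beta co-receptor, spanned less, with a highest over lowest group mean of 6.41 for Kdr and 5.47 for Eng, against 34.1 for Tek and 17.2 for Tie1.

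The remaining endothelial genes included those with the widest spread. Tmem100, a membrane protein of the BMP9 and ALK1 pathway, was at 1.27, 0.868 and 0.756 FPKM in MacB3-3wk and 50.6, 51.0 and 86.5 FPKM in MacB1-N, a ratio of the group means of 65.0. Tspan7, a tetraspanin, had a ratio of 53.3 between the same groups. Egfl7, a secreted factor of endothelium, was even between the MacB1-N libraries at 62.3, 62.7 and 64.0 FPKM. Sox17, a transcription factor of arterial endothelium, averaged 9.92 ± 2.10 FPKM in MacB1-N and 0.745 ± 0.194 FPKM in MacB3-3wk. Emcn, a sialomucin of capillaries and veins, was the 1 endothelial gene whose highest mean was not in MacB1-N, at 15.4 ± 7.36 FPKM in MacB2-2wk and 14.2 ± 4.47 FPKM in MacB1-N, a difference within their spread. Counting all 15 genes, 14 had their highest mean in MacB1-N and 12 their lowest in MacB3-3wk.

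Scgb1a1, the secretoglobin that marks airway club cells, was the most abundant gene of the list by its highest group mean. It was at 270.4, 261.0 and 244.0 FPKM in MacB3-3wk, 109.6, 138.6 and 549.2 in MacB3-2wk, 12684, 7494 and 2742 in MacB1-N, 10211, 7856 and 2834 in MacB2-N, 285.2, 1469 and 2374 in MacB2-2wk, 577.5, 756.3 and 524.0 in MacB2-3wk, 58.4, 84.6 and 662.3 in MacA-2wk, and 561.1, 5198 and 2162 in MacA-N. By level among protein-coding genes it ranked 3, 5 and 14 in the MacB1-N libraries and 5, 6 and 13 in the MacB2-N libraries, against 96, 14 and 21 in MacA-N. The 2 other airway genes followed it, Scgb3a2, a second secretoglobin, and Cyp2f2, the cytochrome P450 of club cells, with an r of 0.963 for each against the other airway genes (n = 24). Cyp2f2 averaged 83.8 ± 25.5 FPKM in MacB1-N, 90.5 ± 44.1 FPKM in MacB2-N and 23.4 ± 18.1 FPKM in MacA-N. Within MacB2-N, replicate 3 was the lowest library for all 3 airway genes while it was the highest for all 15 endothelial genes.

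Alveolar type 2 genes were highest in MacB1-N for most members. Sftpc, the surfactant protein found in type 2 cells alone, was at 9.97, 13.8 and 14.6 FPKM in MacB3-3wk, 16.1, 19.1 and 12.6 in MacB3-2wk, 139.8, 216.3 and 291.2 in MacB1-N, 58.8, 55.2 and 248.3 in MacB2-N, 90.9, 157.7 and 46.1 in MacB2-2wk, 20.5, 43.2 and 19.8 in MacB2-3wk, 18.6, 15.3 and 77.2 in MacA-2wk, and 37.1, 57.3 and 54.6 in MacA-N. The MacB1-N libraries all lay above the MacA-N libraries, and MacB2-N replicate 3 lay inside the MacB1-N range. The other surfactant proteins were lower, with Sftpb at 23.1 ± 2.36, Sftpa1 at 38.7 ± 14.02 and Sftpd at 11.4 ± 4.97 FPKM in MacB1-N, against 5.55 ± 1.95, 9.95 ± 2.58 and 3.19 ± 1.95 FPKM in MacA-N. Slc34a2, the phosphate transporter of type 2 cells, and Lamp3, a protein of their lamellar bodies, averaged 15.2 ± 4.35 and 6.15 ± 2.31 FPKM in MacB1-N, and 3.32 ± 0.823 and 1.58 ± 0.335 FPKM in MacA-N. Nkx2-1 itself was low, at most 4.51 FPKM in any library, and at 1.72, 2.69 and 4.51 FPKM in MacB1-N against 0.608, 0.677 and 0.347 FPKM in MacA-N.

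Among the type 1 genes, Ager, the receptor for advanced glycation end products that marks type 1 cells, varied most between libraries of a group. It was at 125.2, 113.5 and 476.9 FPKM in MacB1-N, 30.6, 68.3 and 211.5 FPKM in MacB2-N and 53.5, 68.1 and 89.6 FPKM in MacA-N. In MacA-2wk it was at 5.06, 4.80 and 293.7 FPKM, so replicate 3 was above the others by far. Cldn18, a claudin of the alveolar epithelium, was at 23.03, 22.7 and 77.0 FPKM in MacB1-N and 4.50, 9.54 and 8.596 FPKM in MacA-N, with the same library highest in MacB1-N as for Ager. Inmt, which encodes a methyltransferase abundant in lung, Fmo1, a monooxygenase, and Limch1, an actomyosin regulator, followed the endothelial set, with r of 0.966, 0.922 and 0.928 against its mean (n = 24), and all 3 had their highest mean in MacB1-N.

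Ratios of genes within a library showed how far 1 composition of RNA could describe the list. Tie1 over Cdh5 stayed between 0.0536 and 0.153 over all 24 libraries, the smallest span of the endothelial genes at 2.86-fold. The span over Cdh5 was 23.03-fold for Sox17, 13.45-fold for Tspan7, 12.02-fold for Cldn5, 10.8-fold for Tek and 10.4-fold for Esam. Single libraries with values near the floor set the low end of several spans. These values were 0.122 FPKM for Sox17, 0.751 for Tspan7, 0.518 for Cldn5, 0.105 for Tek and 0.354 for Tie1. Sftpc over Cdh5, an epithelial over an endothelial gene, stayed between 0.834 and 3.00, a 3.60-fold span. Scgb1a1 over Cdh5 ran from 4.395 to 267.4, a 60.8-fold span, and Scgb1a1 over Sftpc from 3.14 to 173.8, a 55.4-fold span. Among the other alveolar genes the span over Sftpc was 3.54-fold for Slc34a2 and 4.50-fold for Lamp3, but 22.49-fold for Sftpb, 29.28-fold for Hopx, 34.1-fold for Ager and 75.29-fold for Abca3, which is wider than that of Scgb1a1. For Sftpb the low end was a value of 0.265 FPKM. Scgb1a1 over Sftpc was 173.8 and 142.2 in MacB2-N replicates 1 and 2 and 11.4 in replicate 3. Ratios to Cdh5 were not constant within the endothelial set. Eng over Cdh5 was 4.44, 3.26 and 2.12 in MacB3-3wk against 0.719, 0.731 and 0.636 in MacB1-N, and Kdr over Cdh5 was 0.355, 0.672 and 0.303 against 0.0845, 0.110 and 0.123. Pecam1 over Cdh5 was 1.74, 1.00 and 0.989 in MacB3-3wk against 0.555, 0.587 and 0.584 in MacB1-N, and Calcrl over Cdh5 was 7.93, 7.65 and 6.498 against 3.24, 3.94 and 3.23. Tmem100 over Cdh5 was lower in MacB3-3wk, at 0.181, 0.131 and 0.0782 against 0.364, 0.405 and 0.496 in MacB1-N, as was Cldn5 over Cdh5.

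**Figure D3:**
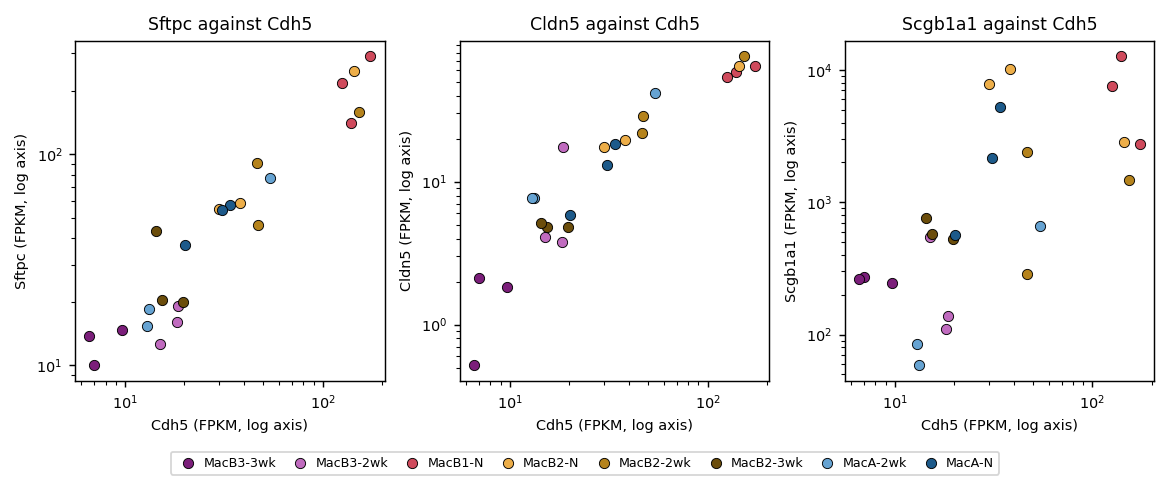
FPKM of Sftpc, Cldn5 and Scgb1a1 against Cdh5 in each of the 24 libraries, coloured by group, on log axes. Sftpc and Cldn5 lie along a band with Cdh5, while Scgb1a1 at a given Cdh5 level is spread over more than a factor of 10, with 2 MacB2-N libraries the highest for their Cdh5 level.

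Not every gene of the list followed this pattern. Cdh1, E-cadherin, was at 4.25, 6.10 and 5.54 FPKM in MacB3-3wk, 7.504, 1.91 and 18.2 in MacB3-2wk, 6.90, 8.26 and 10.2 in MacB1-N, 5.54, 3.21 and 6.82 in MacB2-N, 4.79, 5.4 and 5.86 in MacB2-2wk, 8.02, 5.17 and 10.3 in MacB2-3wk, 34.3, 29.3 and 26.5 in MacA-2wk, and 32.1, 30.8 and 31.2 in MacA-N. The 6 MacA libraries were all above the 18 MacB libraries. Epcam, an epithelial adhesion molecule, was at 5.96, 14.1 and 7.37 FPKM in MacA-2wk and 14.5, 25.6 and 15.5 FPKM in MacA-N, against at most 1.85 FPKM in any MacB library, and it was listed at 0 in 2 MacB3-2wk libraries and 1 MacB3-3wk library. Against a list of 14 alveolar macrophage genes, Epcam had an r of 0.973 and Cdh1 of 0.867 over the 24 libraries, while against the other epithelial genes they had 0.03 and -0.13. Muc1, a surface mucin, did follow the epithelial set (r = 0.808).

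Napsa, Hopx and Abca3 departed in another way, being high in MacB2 libraries in which Sftpc was low. Napsa, the aspartic protease that processes surfactant protein precursors, was at 9.89, 17.6 and 10.1 FPKM in MacB3-3wk, 21.4, 24.3 and 26.04 in MacB3-2wk, 165.9, 145.7 and 151.9 in MacB1-N, 172.5, 168.4 and 108.2 in MacB2-N, 99.9, 124.5 and 123.6 in MacB2-2wk, 46.9, 60.9 and 47.2 in MacB2-3wk, 10.3, 12.4 and 10.5 in MacA-2wk, and 11.4, 16.9 and 15.3 in MacA-N. MacB2-N replicate 3, the highest of its group in Sftpc and Cdh5, was the lowest of its group in Napsa. Hopx, a homeodomain protein of type 1 cells, was at 63.6, 57.6 and 50.7 FPKM in MacB2-N and 44.1, 54.8 and 51.2 FPKM in MacB2-2wk, above the 25.8, 19.4 and 32.8 FPKM of MacB1-N. Abca3, the lipid transporter of lamellar bodies, was at 79.1, 97.8 and 41.7 FPKM in MacB2-N and 29.3, 22.95 and 25.5 FPKM in MacA-N. Against the other epithelial genes the r was 0.703 for Napsa, 0.466 for Hopx and 0.103 for Abca3, and against the alveolar macrophage list -0.49 for Napsa, -0.76 for Hopx and -0.64 for Abca3.

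**Figure D4:**
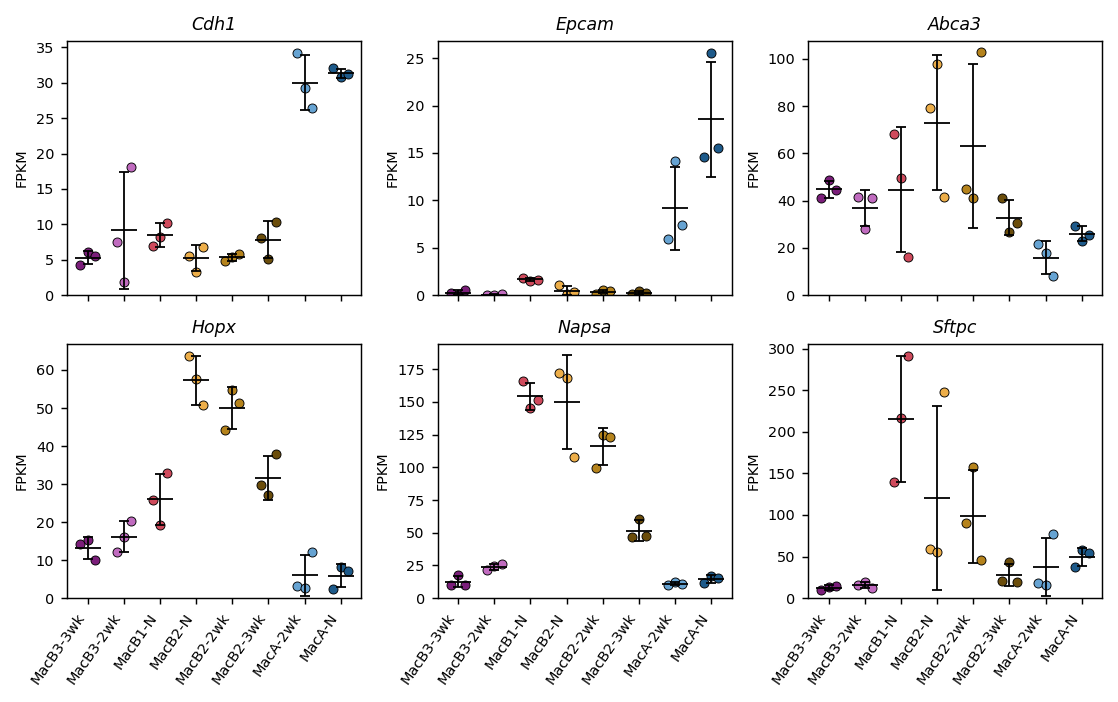
FPKM of Cdh1, Epcam, Abca3, Hopx, Napsa and, for comparison, Sftpc in each library by group, with the group mean and SD (n = 3). Cdh1 and Epcam are high in the 6 MacA libraries, Hopx and Abca3 have their highest mean in MacB2-N, and Napsa has similar levels in MacB1-N and MacB2-N where Sftpc is uneven.

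Differences between groups were read from a limma fit of log2(FPKM + 1) across 17156 genes, in which a gene was called when its Benjamini-Hochberg adjusted p over all of them was under 0.05 and its fold at least 2. All 36 genes entered the fit, for which a group mean of 1 FPKM or more was required. Contrasts below share groups, MacA-N in 3 of them and MacB2-N in 4, and the interaction repeats 4 groups, so their values are given side by side and not as separate evidence. In MacB1-N against MacA-N, 15 of 15 endothelial genes were called higher, as were 9 of 18 epithelial genes and 2 of the 3 others, where 15.0% of all genes tested were called higher and 23.7% in either direction. The median log2 fold change was 2.09 for the endothelial and 1.81 for the epithelial genes, beside 0.12 for all genes. Cdh1 and Epcam were called lower, where 8.71% of all genes were. Eng, at 101.0 ± 9.57 FPKM in MacB1-N and 18.5 ± 2.46 FPKM in MacA-N, had a log2 fold change of 2.39 ± 0.36 (SE) and a limma adjusted p of 4.13e-05, and Cdh5 one of 2.35 ± 0.54 with an adjusted p of 0.00259. Napsa had 3.34 ± 0.21 with an adjusted p of 8.59e-10, and Epcam -2.83 ± 0.30 with an adjusted p of 4.43e-07. Scgb1a1 had 1.79 ± 0.95 and an adjusted p of 0.161, and it was not called. The endothelial count was 7 without MacA-N replicate 1 and 9 without MacB1-N replicate 3, and the epithelial count of 11 in both directions was 6 without MacB1-N replicate 3. Of all 17156 genes, 3683 were called in either direction without MacA-N replicate 1 and 3774 without MacB1-N replicate 3. Cdh5, Tek, Tie1, Eng, Pecam1 and Sox17 kept their call when any 1 library was left out.

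**Figure D5:**
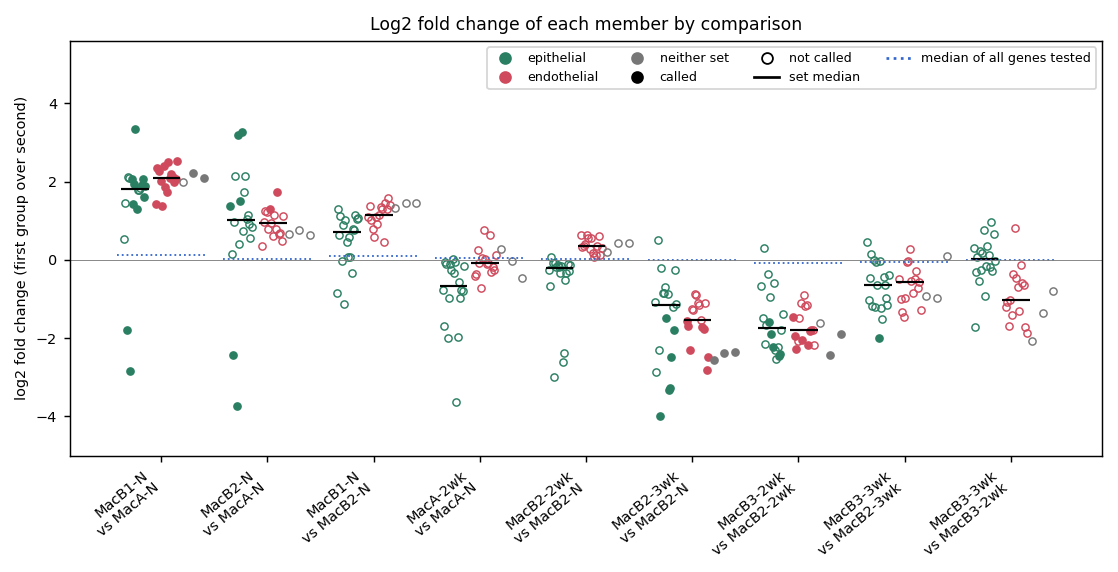
Log2 fold change of each of the 36 genes in 9 comparisons (first group over second), with called genes filled, the median of the epithelial and endothelial sets as black lines and the median of all genes tested as dotted lines. The endothelial genes lie above 0 in MacB1-N against MacA-N and below 0 in MacB2-3wk against MacB2-N and in MacB3-2wk against MacB2-2wk.

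MacB2-N against MacA-N uses the same MacA-N libraries. Napsa, Hopx, Muc1 and Abca3 were called higher among the epithelial genes and Cdh1 and Epcam lower, and Eng and Sox17 were called higher among the endothelial genes, where 10.7% of all genes were called higher and 10.2% lower, 20.9% in all. Hopx averaged 57.3 ± 6.48 FPKM in MacB2-N and 5.89 ± 3.04 FPKM in MacA-N, a log2 fold change of 3.20 ± 0.40 with a limma adjusted p of 3.90e-06. The median log2 fold change was 0.93 for the endothelial and 1.01 for the epithelial genes. Without MacB2-N replicate 3 no endothelial gene was called and the endothelial median was 0.31, while the same 6 epithelial genes were called, where 10.9% of all genes were called higher and 9.93% lower. The endothelial count was 1 without MacA-N replicate 1 and 1 without MacA-N replicate 2.

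In MacB1-N against MacB2-N no gene of the list was called in limma, where 5.21% of all genes were (3.5% higher and 1.7% lower), although 15 of 15 endothelial genes had a fold change above 0, with a median of 1.14 on the log2 scale. At an unadjusted limma p under 0.05 there were 8 endothelial genes, all higher, and 3 epithelial genes, 2 higher and 1 lower. The share of all genes under this p is not given here or in the contrasts below, so such counts are descriptions. MacB2-N replicate 3 decided the count of called genes. Without it 8 endothelial genes were called higher, Tek, Pecam1, Eng, Cdh5, Tie1, Calcrl, Kdr and Tmem100, together with Sftpc and Lamp3, where 5.26% of all genes were, and the endothelial median was 1.77. Tmem100 then had a log2 fold change of 2.37 and Cdh5 one of 2.07, with limma adjusted p values of 0.0120 and 0.0148. This library was singled out as the highest of its group in 15 of 15 endothelial genes, so leaving it out raises their folds of necessity. The calls without it describe that dependence and are not separate evidence of a difference. The airway genes differed by little between these populations either way, with log2 fold changes of 0.07 for Scgb1a1, -0.35 for Scgb3a2 and -0.04 for Cyp2f2 over all libraries. The endothelial count was 1 without MacB1-N replicate 1 and the epithelial count 1 without MacB2-N replicate 1.

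In MacA, 2 weeks of tumour went with lower means of airway genes that were not called. Scgb1a1 averaged 268.4 ± 341.4 FPKM in MacA-2wk and 2640 ± 2355 FPKM in MacA-N, a log2 fold change of -3.62 ± 0.95 with a limma adjusted p of 0.0921. No gene of the list was called, where 0.787% of all genes were (0.729% higher and 0.0583% lower), and 3 epithelial and 0 endothelial genes had an unadjusted p under 0.05. Without MacA-2wk replicate 3, Scgb1a1 (log2 fold change -4.70, adjusted p 0.0234), Cyp2f2 (-3.22, 0.0393) and Sftpb (-2.13, 0.0238) were called lower, where 0.0641% of all genes were. That library was the highest of its group in all 3 airway genes, so leaving it out lowers their MacA-2wk means of necessity. These calls are not separate evidence of a difference. One epithelial gene was called lower without MacA-2wk replicate 2. The endothelial genes had a median log2 fold change of -0.07 with all libraries and -0.73 without MacA-2wk replicate 3.

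In MacB2 no gene of the list was called at 2 weeks of tumour, and at 3 weeks 16 genes fell. Both contrasts use the MacB2-N libraries. In MacB2-2wk against MacB2-N the limma fit called 0 of the 36 genes, where 1.88% of all genes were (1.66% higher and 0.227% lower), and 3 epithelial and 0 endothelial genes had an unadjusted p under 0.05. Those 3 were the airway genes, with log2 fold changes of -2.61 for Scgb1a1, -2.39 for Scgb3a2 and -2.99 for Cyp2f2 and adjusted p values of 0.187, 0.241 and 0.0700. In each of these 3 genes every MacB2-2wk library lay below every MacB2-N library. The share of all genes that separated in this way is not given, so the separation describes these libraries only. The endothelial median was 0.35, and it was 0.96 without MacB2-N replicate 3, -0.16 without MacB2-2wk replicate 2 and 0.50 without both.

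In MacB2-3wk against MacB2-N, 6 of 18 epithelial genes, 7 of 15 endothelial genes and the 3 others were called lower and none higher, where 5.04% of all genes were called lower and 9.67% higher, 14.7% in all. The epithelial genes called were Sftpc, Sftpa1, Napsa and the 3 airway genes, and the endothelial ones were Cdh5, Cldn5, Tek, Calcrl, Tmem100, Tspan7 and Sox17. Cyp2f2 averaged 4.47 ± 1.72 FPKM in MacB2-3wk and 90.5 ± 44.1 FPKM in MacB2-N, a log2 fold change of -4.00 ± 0.83 with a limma adjusted p of 0.00175. Napsa averaged 51.7 ± 7.98 FPKM and 149.7 ± 36.02 FPKM in the same groups, with -1.50 ± 0.21 and an adjusted p of 5.81e-05. Tmem100 averaged 1.91 ± 0.375 FPKM and 27.3 ± 28.1 FPKM, with -2.83 ± 0.61 and an adjusted p of 0.00227. The medians were -1.54 for the endothelial and -1.17 for the epithelial genes, beside 0 for all genes tested. Without MacB2-N replicate 3 the endothelial calls were 1, Tmem100 at -2.05, and the epithelial calls 4, the 3 airway genes and Napsa, where 4.73% of all genes were called lower. The endothelial count was 4 without MacB2-3wk replicate 1 and 4 without replicate 2, and the epithelial count 2 without MacB2-3wk replicate 1 and 2 without replicate 3. Cyp2f2, Napsa, Tmem100 and Limch1 kept their call when any 1 library was left out.

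The medians of both sets were lower in MacB3 than in MacB2 of the same week, and 14 genes were called lower at 2 weeks and 1 gene at 3 weeks. In MacB3-2wk against MacB2-2wk, 5 epithelial genes (Sftpc, Sftpb, Napsa, Hopx and Muc1), 7 endothelial genes (Cdh5, Cldn5, Tek, Calcrl, Tie1, Esam and Sox17) and 2 others were called lower and none higher, where 4.21% of all genes were called lower and 3.15% higher, 7.36% in all. The medians were -1.80 for the endothelial and -1.73 for the epithelial genes, beside -0.08 for all genes. Napsa averaged 23.9 ± 2.33 FPKM in MacB3-2wk and 116.0 ± 13.96 FPKM in MacB2-2wk, a log2 fold change of -2.23 ± 0.21 with a limma adjusted p of 1.37e-06. Muc1 averaged 1.39 ± 1.00 FPKM and 7.62 ± 2.46 FPKM in these groups, with -1.90 ± 0.38 and an adjusted p of 0.00311. The endothelial count depended on single libraries, with 0 without MacB2-2wk replicate 2, 0 without MacB3-2wk replicate 3, 1 without MacB3-2wk replicate 1 and 4 without MacB3-2wk replicate 2. The epithelial count was 2 without MacB2-2wk replicate 2, namely Napsa and Muc1, where 3.04% of all genes were called lower, and 3 without MacB3-2wk replicate 3. With a replicate block, which between MacB groups is also a block for lane, Limch1 was not called (log2 fold change -1.90, limma adjusted p 0.0504), which left 1 of the 3 other genes called.

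In MacB3-3wk against MacB2-3wk, Napsa was the 1 gene called lower, where 1.03% of all genes were called lower and 1.61% higher, 2.64% in all, at 12.5 ± 4.36 FPKM in MacB3-3wk and 51.7 ± 7.98 FPKM in MacB2-3wk (log2 fold change -1.998 ± 0.214, limma adjusted p 1.13e-05). No endothelial gene was called and none had an unadjusted p under 0.05, and their median was -0.57. In MacB3-3wk against MacB3-2wk no gene of the list was called in limma, where 0.315% of all genes were (0.28% higher and 0.035% lower). The endothelial median was -1.03, with 5 endothelial genes and 1 epithelial gene at an unadjusted p under 0.05, and the epithelial median was 0.03. One epithelial gene was called lower without MacB3-3wk replicate 2. The interaction that asks whether the 2-week tumour difference of MacB2 differed from that of MacA called no gene of the list, where 0.221% of all genes were (0.134% higher and 0.0874% lower), and 1 epithelial and 0 endothelial genes had an unadjusted p under 0.05.

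Other genes of the same tissues were read from lists that were drawn up with earlier results known. Of 28 further endothelial genes tested, 18 were called higher and 2 lower in MacB1-N against MacA-N, 1 higher and 10 lower in MacB2-3wk against MacB2-N, and 13 lower in MacB3-2wk against MacB2-2wk. Of all genes tested, 15.0% were called higher and 8.71% lower, 9.67% higher and 5.04% lower, and 4.21% lower in the same contrasts. Their mean had an r of 0.985 with the endothelial set (n = 24). Ace, the angiotensin-converting enzyme of lung capillaries that monocytes also make, averaged 745.3 ± 158.0 FPKM in MacB1-N and 28.1 ± 1.95 FPKM in MacA-N. Car4, a carbonic anhydrase of lung capillaries, is also on the alveolar macrophage list used above. It ran the other way, at 56.1 ± 17.7 FPKM in MacB1-N and 490.9 ± 47.9 FPKM in MacA-N. Of 29 further epithelial genes tested, 11 were called higher and 2 lower in MacB1-N against MacA-N and 4 higher and 8 lower in MacB2-3wk against MacB2-N, beside the same shares of all genes. The 2 called lower in MacB1-N and the 4 called higher in MacB2-3wk are near those shares. In MacB3-2wk against MacB2-2wk 2 of the 29 were called higher and 1 lower, with a median log2 fold change of -1.03. Of all genes, 3.15% were called higher and 4.21% lower there, so these counts are also near the shares. Ehf was among the 11 called higher in MacB1-N, at 25.6 ± 5.73 FPKM against 0.361 ± 0.422 FPKM in MacA-N. So was Lyz1, at 49.2 ± 9.77 FPKM against 4.03 ± 1.53 FPKM. Krt19, a keratin, was among the 2 called lower in MacB1-N, at 16.2 ± 12.8 FPKM against 471.8 ± 34.3 FPKM in MacA-N. Pdpn, podoplanin of type 1 cells and of activated macrophages, was higher with tumour, at 126.0 ± 65.2 FPKM in MacB2-3wk and 6.17 ± 4.48 FPKM in MacB2-N.

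Markers of further cell types moved with these genes, and their part in the results was not tested. The mean of 12 smooth muscle and pericyte genes had an r of 0.928 with the endothelial set, and their summed level was 49.3 to 64.8 FPKM in MacB1-N and 9.24 to 19.5 FPKM in MacA-N, with none at 0 in either group. The mean of 12 ciliated cell genes had an r of 0.881 and that of 7 red cell genes an r of 0.854 with the airway secretory genes. The summed red cell genes were at 119.1 to 618.0 FPKM in MacB1-N, 95.0 to 425.2 FPKM in MacB2-N and 5.34 to 379.3 FPKM in MacA-N, and at 6.95 to 12.4 FPKM in MacB2-3wk. In MacB2-3wk against MacB2-N the fibroblast list of 17 genes did not go with the endothelial set, with 7 called higher and 3 lower. Of all genes, 9.67% were called higher and 5.04% lower there. It did go with that set in MacB1-N against MacA-N, with 13 called higher and 1 lower, where 15.0% and 8.71% of all genes were. In MacB3-2wk against MacB2-2wk 0 were called higher and 4 lower, where 3.15% and 4.21% of all genes were. The fibroblast list had an r of 0.320 with the endothelial set. Its summed level was 2077 to 2645 FPKM in MacB2-3wk and 906.1 to 1520 FPKM in MacB2-N. Fn1, at 936.2 ± 345.5 FPKM, made up most of the MacB2-N sum, so the sum says little of the other genes. The 3 genes of largest fold called in MacB2-3wk against MacB2-N, Col3a1, Lum and Dcn, averaged 5.62, 0.403 and 8.91 FPKM in MacB2-N. In MacB2-3wk they averaged 266.1, 55.7 and 236.5 FPKM. Lists of 11 neutrophil and 9 platelet genes had an r of -0.05 and -0.04 with the endothelial set, and the 14 alveolar macrophage genes 0.02, with 13 of them called lower in MacB1-N against MacA-N, where 8.71% of all genes were. The lymphocyte lists were closer, with an r of 0.718 for 14 T and NK cell genes and 0.810 for 8 B cell genes, and 6 mesothelial and 11 dendritic cell genes had 0.598 and 0.655. In MacB1-N against MacA-N, 8 of 9 dendritic cell genes and 8 of 12 T and NK cell genes tested were called higher, where 15.0% of all genes were.

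The genes outside the list whose level was most like the endothelial set over the 24 libraries, among 10114 protein-coding genes with a group mean of at least 5 FPKM, were Slco2a1 (Pearson r = 0.990), Gpr116, Pcdh1, Tspan18, Clec14a, Ptprb, Ppp1r16b and Clic5 (r = 0.980). Slco2a1, a prostaglandin transporter, averaged 36.7 FPKM in MacB1-N and 1.47 FPKM in MacB3-3wk. Those most like the epithelial set were Sec14l3 (r = 0.947), Rnf144a, Cxcl15, Aldh1a1, Foxf1, Aqp1, Plvap and Bmp6 (r = 0.927). Cxcl15, the chemokine lungkine of airway epithelium, averaged 17.3 FPKM in MacB1-N and 1.31 FPKM in MacB3-3wk, and Plvap, which is a gene of endothelial fenestrae, averaged 64.5 and 3.61 FPKM.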

How the data were processed

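RNA sequencing values of 24 libraries were analysed. The authors deposited FPKM, computed with Cufflinks 2.0.2 from TopHat2 (version 2) alignments to mm10 after read checks in FastQC, per the submitters' processing notes. The header of the table names no unit, so FPKM rests on these notes. Absolute depth is unknown. With strand use not given in the sources used here, reads of overlapping and antisense genes cannot be told apart. Of 32917 loci in the table matched by Ensembl identifier, 4218 overlapped the GENCODE M21 position, and no coordinates of the table are printed. The design text and the sample titles name the MacB3 libraries of 2 weeks differently, and the titles were followed.

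Of 37979 genes, 17156 reached a group mean of 1 FPKM and were tested on log2(FPKM + 1), which understates folds of low genes. One limma model (version 3.58.1, R 4.3.3) over all libraries had a term for each group, 16 residual degrees of freedom and a variance trend, and p values were adjusted by Benjamini-Hochberg over all genes of a contrast. The fit was tested on simulated data. The members, sets and lists were chosen with earlier results of these data known. The text names all 36 genes, the 8 genes most like each set, up to 3 called genes with the largest folds per list, and Siglecf, Itgam and Ptprc as checks of the sort. The labels put MacB replicates 1, 2 and 3 on lanes 2, 3 and 7, so in MacB a replicate block is also a lane block. Over 45 pairs of same-numbered libraries from different MacB groups, deviations from the group means had a median correlation of 0.00119, over 0.1 in 1 pair. Over the 90 pairs of different number the median was -0.00226, again over 0.1 in 1 pair. Alternatives were a pseudocount of 0.1, no filter, scaling to the protein-coding sum, quantile normalization, a replicate block, the compared groups alone, and leaving out each library. Leaving out a pair of libraries together was chosen after seeing the data.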

Additional observations from a re-analysis of the deposited data

How the results depend on the processing

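Of 67 pairs of a gene and a comparison that were called, 22 kept their call in every alternative run, and of 804 alternative values 185 lost the call and 0 changed sign. Of 254 alternative counts of called genes, 223 stayed within 1.5 times the reported count and 31 did not, 24 of these with a library left out. Contrasts with a reported count of 0, such as MacB2-2wk against MacB2-N, are included. The 223 thus do not show how steady the counts above 0 were. With the compared groups alone in the fit, the endothelial count was 0 in MacB2-N against MacA-N, 0 in MacB2-3wk against MacB2-N and 0 in MacB3-2wk against MacB2-2wk, and the epithelial count was 3, 3 and 2 in MacB2-3wk against MacB2-N, MacB3-2wk against MacB2-2wk and MacB3-3wk against MacB2-3wk. This fit has fewer samples to estimate the spread from. Scaling to the protein-coding sum gave 0 endothelial calls in MacB2-N against MacA-N, and the cause was not tested. Leaving out 1 library gave 6 to 10 epithelial and 7 to 15 endothelial calls in MacB1-N against MacA-N, 5 to 7 and 0 to 3 in MacB2-N against MacA-N, 0 to 2 and 0 to 8 in MacB1-N against MacB2-N, 0 to 3 epithelial in MacA-2wk against MacA-N, 2 to 6 and 1 to 9 in MacB2-3wk against MacB2-N, 2 to 6 and 0 to 7 in MacB3-2wk against MacB2-2wk, and 0 to 1 epithelial in MacB3-3wk against MacB3-2wk. As a percent of all FPKM the epithelial set averaged 0.0137 in MacB3-3wk, 0.0117 in MacB3-2wk, 0.357 in MacB1-N, 0.220 in MacB2-N, 0.0511 in MacB2-2wk, 0.0273 in MacB2-3wk, 0.0134 in MacA-2wk and 0.127 in MacA-N. MacB3-2wk, not MacB3-3wk, was thus the lowest group for the epithelial set by this share. The endothelial set averaged 0.00462 in MacB3-3wk, 0.00796 in MacB3-2wk, 0.0510 in MacB1-N, 0.02025 in MacB2-N, 0.0271 in MacB2-2wk, 0.00617 in MacB2-3wk, 0.00962 in MacA-2wk and 0.0162 in MacA-N. The larger denominator alone lowers these shares. Quantile normalization split the called genes of MacB1-N against MacA-N into 1930 higher and 2161 lower, where the reported scale gave 2572 and 1495, and scaling to the protein-coding sum split those of MacB2-N against MacA-N into 1415 and 2249, where the reported scale gave 1838 and 1745. Under these 2 scalings, splits also moved by over 10 percentage points to 423 and 422 (quantile) and 767 and 200 (protein-coding sum) against 601 and 292 in MacB1-N against MacB2-N, 209 and 71 (quantile) against 284 and 39 in MacB2-2wk against MacB2-N, 1374 and 1234 (quantile) and 1839 and 566 (protein-coding sum) against 1659 and 865 in MacB2-3wk against MacB2-N, 676 and 527 (quantile) against 541 and 722 in MacB3-2wk against MacB2-2wk, and 21 and 6 (quantile) against 48 and 6 in MacB3-3wk against MacB3-2wk. The median log2 fold change of all genes moved by over 0.1 in MacB1-N against MacA-N (-0.03 with quantile normalization, 0.12 as reported), in MacB1-N against MacB2-N (-0.02 with quantile normalization and 0.26 with the protein-coding sum, 0.09 as reported) and in MacB2-3wk against MacB2-N (0.10 with the protein-coding sum, 0 as reported). With the compared groups alone, the called genes among all tested were 268, 171 higher and 97 lower, in MacB1-N against MacB2-N, 4, 2 and 2, in MacA-2wk against MacA-N, 37 in MacB2-2wk against MacB2-N, 1680 in MacB2-3wk against MacB2-N, 648 in MacB3-2wk against MacB2-2wk, 26 in MacB3-3wk against MacB3-2wk and 13 for the interaction. In MacB3-3wk against MacB3-2wk leaving out MacB3-3wk replicate 2 gave 11 higher and 7 lower, and leaving out MacB3-2wk replicate 2 gave 9 and 2. A pseudocount of 0.1 gave 238 calls in MacA-2wk against MacA-N, 19 in MacB3-3wk against MacB3-2wk and 89 for the interaction, where the reported numbers were 135, 54 and 38.

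The reported fit has no replicate block. In 9 of 18 MacB libraries the best match shared the number. The block moved no epithelial or endothelial count past 1.5 times. It gave 1 called gene in place of 2 among the 3 genes of neither set in MacB3-2wk against MacB2-2wk, and 24 in place of 38 among all genes for the interaction. It ended the calls of Emcn in MacB1-N against MacA-N, with a log2 fold change of 1.37, and of Limch1 in MacB3-2wk against MacB2-2wk, with -1.90.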
